A study of Homo sapiens with 6 samples.

Results

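The HMGA, HMGB and HMGN genes encode the high mobility group proteins, small and abundant architectural proteins of chromatin. The genes described here are all 10 that the expression table lists under the symbols HMGA1, HMGA2, HMGB1, HMGB2, HMGB3, HMGN1, HMGN2, HMGN3, HMGN4 and HMGN5, out of 63009 genes read. Of these symbols HMGB3 was listed in 2 rows, and the row with the higher mean was taken, because the other was at 0 in every library. All 10 passed the filter for testing, a mean of at least 1 FPKM (fragments of a transcript, scaled for its length and for the mapped fragments of the library), as did 13993 genes in all.

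HMGA proteins bind the minor groove of AT-rich DNA through short AT hooks, HMGB proteins bend DNA with paired HMG boxes that precede an acidic tail, and HMGN proteins bind the nucleosome core itself. All 3 families act on chromatin compaction, and members of each compete with linker histone H1 for chromatin. In senescent fibroblasts HMGA proteins accumulate in senescence-associated heterochromatic foci (SAHF), HMGB1 leaves the nucleus and is secreted as an alarm signal, and HMGB2 is known as a chromatin factor of proliferating cells.

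RNA was profiled in 6 libraries of IMR90 cells, a line of primary human lung fibroblasts, which stably expressed a tamoxifen-activatable H-RasV12 fused to the ligand-binding domain of the estrogen receptor (ERRAS cells). The 3 control libraries came from uninduced ERRAS cells and the 3 Ras-induced libraries from ERRAS cells given tamoxifen for 4 days, at 100 nM per the labels, while the study's methods state the dose in another unit, by mass of 4-hydroxytamoxifen, that does not equal it. Both groups therefore carried the construct, and both were arrested in mitosis with 1 µM DME, an inhibitor of the spindle motor Eg5, before the detached mitotic cells were collected and their poly(A) RNA was sequenced. The comparison asks which transcripts differ in mitosis after Ras induction, and libraries are named here by the number in the column headers of the table. The study describes independent repeats of the experiment, while the labels do not tie a library to a repeat. Throughout, a value after ± is the SD over the libraries of a group (n = 3 in each).

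HRAS, also encoded by the construct, measured 1164 ± 20.3 FPKM in control and 1586 ± 226.5 FPKM in Ras-induced mitotic cells. Its adjusted p was 0.0431 (limma), and this call was lost in 10 of 13 alternatives, including all 6 that left out a library, with adjusted p from 0.0193 to 0.166 over the 13. The fibroblast marker VIM was at 2248 FPKM in Ras-induced cells, while 3 of 8 fibroblast markers (COL1A2, THY1 and LUM) were lower at an adjusted p at or under 0.05 from limma, beside 5.67% of all tested genes. COL1A1 at -1.43 (adjusted p = 0.0501) and COL3A1 at -1.25 (adjusted p = 0.0553) on the log2 scale just missed that threshold, and the summed level of the 8 went from between 4736 and 5339 FPKM to between 3071 and 4297 FPKM. Of the 5 leukocyte markers none passed the filter, their sum stayed at or below 0.288 FPKM, and CD3E and FCGR3A were at 0 in every library. Among 5 endothelial markers PECAM1 was at 0 and the sum went from between 14.5 and 16.5 FPKM to between 4.81 and 5.41 FPKM, which was nearly all TEK, and the 4 epithelial markers summed to between 17.0 and 32.8 FPKM in control and between 19.6 and 21.2 FPKM in Ras-induced cells. The part of these markers in the HMG differences was not tested. No absolute depth is given in the sources used here, although the study refers to alignment statistics of its own. The steps between low FPKM values put the libraries between 0.849 and 1.17 times the depth of the first control library.

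Ras induction was accompanied by opposite changes within the HMG genes. HMGA1 rose 1.72-fold, whereas HMGB2 fell to 0.513 and HMGN2 to 0.571 of their control means, and HMGB3 and HMGN4 fell to 0.778 and 0.781 of theirs. In bulk RNA fewer cells that carry a transcript and less of it per cell cannot be told apart. HMGB1, HMGN1 and HMGN3 had overlapping groups and were not called. HMGA2 and HMGN5 were separated between the groups, upward and downward, but missed the threshold. A gene was called altered where its p from limma, adjusted by Benjamini and Hochberg's method, did not exceed 0.05, with the model fitted on log2(FPKM + 1) over all tested genes. On that rule 5 of the 10 were altered, 1 higher and 4 lower, beside 16.7% of all tested genes (11.0% higher and 5.67% lower). Groups did not overlap in 7 of the 10, with 2 higher and 5 lower, beside 39.9% of all tested genes (27.1% higher and 12.8% lower). The median log2 fold change of the 10 was -0.17, and that of all tested genes was 0.10. The number of lower members was 4 also without control library 3, 2 without Ras-induced library 2, and 1 without any other single library.

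HMGA1 (ENSG00000137309, chromosome 6 of GRCh37 from 34204650 to 34214008) encodes the major HMGA protein of cultured fibroblasts. It was listed at 546, 544 and 546 FPKM in control and at 903, 879.8 and 1032.5 FPKM in Ras-induced libraries. The controls lay close together, and every Ras-induced library was far above them. The means were 545 ± 1.29 FPKM and 938 ± 82.4 FPKM, a log2 fold change of 0.78 (standard error 0.08, 95% interval from 0.58 to 0.98, adjusted p = 0.00378 from limma). The call held in all 13 alternatives, with log2 fold changes between 0.67 and 0.82 and adjusted p between 0.00205 and 0.0339. Of all tested genes, 94.4% had a lower log2 fold change. By its mean level over the 6 libraries HMGA1 stood at the 99.4th percentile of the tested genes.

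HMGA2 (ENSG00000149948, chromosome 12 of GRCh37 from 66218240 to 66360071), the second AT-hook gene, is best known as an embryonic gene that stays active in fetal fibroblasts and tumors. It was listed at 74.7, 63.4 and 54.8 FPKM in control and at 113, 82.5 and 87.0 FPKM in Ras-induced libraries. The groups did not overlap, but the highest control and the lowest Ras-induced library lay close together. The means were 64.3 ± 9.97 FPKM and 94.2 ± 16.5 FPKM, and their log2 difference was 0.54 (standard error 0.16, 95% interval from 0.16 to 0.92). The adjusted p from limma was 0.062, which missed the threshold. With only genes of at least 5 FPKM tested, the adjusted p was 0.0482, and over all alternatives it ranged from 0.0226 to 0.166. RPSAP52, a transcribed pseudogene on the opposite strand that overlaps HMGA2, had means of 5.12 FPKM and 7.39 FPKM. The counting is not stated to use strand, so reads from the overlap cannot be told apart.

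HMGA2 is the classic target of the let-7 microRNAs, and matches to the let-7 seed were looked for in all 10 genes. The 8 let-7 5p arms in RefSeq share 1 seed (bases 2 to 8, in capitals), as in this member.

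hsa-let-7a-5p: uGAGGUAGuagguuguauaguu

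The seed match CTACCTC was searched on the sense strand of the canonical 3′ UTR of each coding gene (GENCODE 44 lifted to GRCh37). It occurred 4 times in the 2999 bases of the HMGA2 3′ UTR and 1 time in the 1347 bases of that of HMGA1, and it was not found in the 3′ UTRs of the HMGB or HMGN genes. Of 19403 3′ UTRs, 9.79% held at least 1 match and 0.0618% held 4 or more, and among the 4653 of at least 2500 bases the latter share was 0.236%. The 5 matches are shown 5′ to 3′ with the seed match in capitals, all on the plus strand.

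HMGA2 chr12:66357079-66357100: ccaacgttcgatttCTACCTCa

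HMGA2 chr12:66358314-66358335: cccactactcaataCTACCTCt

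HMGA2 chr12:66358726-66358747: tgacttgcaaagacCTACCTCc

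HMGA2 chr12:66359579-66359600: atcaaaacacactaCTACCTCt

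HMGA1 chr6:34213607-34213628: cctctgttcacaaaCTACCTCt

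A match is a stretch of letters and not a measured site, and let-7 itself was not measured in this poly(A) RNA. The genes of the let-7 pathway and the IGF2BP RNA-binding proteins were read beside these sites. LIN28A and LIN28B, which block let-7 maturation, and TRIM71, a let-7 target in stem cells, were listed at 0 in all 6 libraries. Of the 13 genes of the list 10 were tested and 3 were altered, all higher (30.0%, median log2 fold change 0.08). IGF2BP3 went from 45.4 ± 5.77 to 67.8 ± 8.40 FPKM (log2 fold change 0.57, adjusted p = 0.0331 from limma) and IGF2BP2, itself known as an HMGA2 target, from 36.4 ± 3.84 to 59.2 ± 14.1 FPKM (log2 fold change 0.66, adjusted p = 0.048 from limma). The third was ZCCHC6, a terminal uridylyltransferase, with a log2 fold change of 0.73. These calls were fragile. After quantile normalization or upper-quartile scaling 1 gene of the list was altered, DROSHA, which was lower, and the count was 0 without a filter on low values, without control library 1, 2 or 3 or without Ras-induced library 1, and 1 without Ras-induced library 3. DICER1, which cuts the let-7 hairpin, measured 10.2 ± 1.34 and 9.27 ± 1.87 FPKM and was not called.

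HMGB2 (ENSG00000164104, chromosome 4 of GRCh37 from 174252527 to 174255583), the HMG-box gene most tied to proliferating cells, had the largest fall of the 10. Its FPKM values were 408.5, 382 and 381 in control and 199, 221 and 181 in Ras-induced libraries. The groups were far apart, and neither spread much. The means were 390.5 ± 15.6 FPKM and 200.2 ± 19.8 FPKM, a log2 fold change of -0.96 (standard error 0.09, 95% interval from -1.18 to -0.74, adjusted p = 0.00278 from limma). All 13 alternatives kept the call, with log2 fold changes from -1.07 to -0.89 and adjusted p from 0.00153 to 0.0246. Only 3.49% of tested genes had a lower log2 fold change.

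HMGB1 (ENSG00000189403, chromosome 13 of GRCh37 from 31030841 to 31191734), the most abundant HMGB gene here and the one whose protein is secreted in senescence, was listed at 557, 569 and 525 FPKM in control and at 504, 607 and 505 FPKM in Ras-induced libraries. The second Ras-induced library lay above every control and the others below them, so the groups overlapped. The log2 fold change was -0.04 (95% interval from -0.27 to 0.20, adjusted p = 0.828 from limma), and its sign turned when the first or the third Ras-induced library was left out (0.01 in both). HMGB1 has 42 listed pseudogenes, 7 of them at a mean of 1 FPKM or more. The highest, HMGB1P5, measured 235 ± 10.1 and 213 ± 14.6 FPKM, with a log2 fold change of -0.14 (adjusted p = 0.264 from limma). Reads shared between such copies and HMGB1 could be split by the counting, which leaves the level of HMGB1 uncertain.

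HMGB3 (ENSG00000029993, chromosome X of GRCh37 from 150148982 to 150159244), known from hematopoietic progenitors, was listed at 152, 136 and 129 FPKM in control and at 106, 113 and 106 FPKM in Ras-induced libraries. Every Ras-induced library lay below the lowest control. The means were 139 ± 11.9 FPKM and 108 ± 3.82 FPKM, and their log2 difference was -0.36 (standard error 0.085, 95% interval from -0.56 to -0.15, adjusted p = 0.0354 from limma). The call was lost in 8 of 13 alternatives, among them no filter on low values (adjusted p = 0.0661), no mean-variance trend (0.0602), and control library 1 (0.0838) or 2 (0.0941) or Ras-induced library 1 (0.0953), 2 (0.0627) or 3 (0.113) left out. The other was the replicate block (0.0507).

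Within the HMGB family the balance shifted toward HMGB1. HMGB1 FPKM were 1.36, 1.49 and 1.38 times those of HMGB2 in control libraries and 2.54, 2.75 and 2.79 times in Ras-induced libraries. HMGB2 made up 36.2 ± 0.916% of the summed HMGB FPKM in control and 23.6 ± 0.859% in Ras-induced cells, while the share of HMGB3 was 12.9 ± 0.642% and 12.8 ± 0.739%. A ratio of FPKM within a library does not change when the whole library is multiplied by a single factor.

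HMGN2 (ENSG00000198830, chromosome 1 of GRCh37 from 26798931 to 26803133), a ubiquitous nucleosome-binding protein, had the highest mean of the 10 in control mitotic cells, although its range overlapped that of HMGB1. It was listed at 627, 617 and 514 FPKM in control and at 280.1, 403 and 322 FPKM in Ras-induced libraries. The Ras-induced libraries were spread widely and stayed below every control. The means were 586 ± 62.5 FPKM and 335 ± 62.3 FPKM, a log2 fold change of -0.82 (standard error 0.15, 95% interval from -1.18 to -0.46, adjusted p = 0.0164 from limma). Without a filter on low values the adjusted p was 0.0534, and it was 0.075 without control library 1, 0.0789 without control library 2, 0.0592 without Ras-induced library 1 and 0.0755 without Ras-induced library 3. HMGN2 has 36 listed pseudogenes, 7 at a mean of 1 FPKM or more, and HMGN2P5, the highest, measured 30.0 ± 12.1 and 21.0 ± 5.92 FPKM.

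HMGN4 (ENSG00000182952, chromosome 6 of GRCh37 from 26538594 to 26547161) is a retrogene that arose from HMGN2, so that reads of the pair may be shared. It was listed at 78.9, 76.5 and 84.2 FPKM in control and at 64.0, 64.0 and 59.2 FPKM in Ras-induced libraries, with no overlap. The means were 79.9 ± 3.96 FPKM and 62.4 ± 2.79 FPKM, and their log2 difference was -0.35 (standard error 0.08, 95% interval from -0.53 to -0.17, adjusted p = 0.0258 from limma). The call was lost with the replicate block (adjusted p = 0.0514) and when control library 1 (0.0688) or 2 (0.058) or Ras-induced library 1 (0.0608), 2 (0.0504) or 3 (0.0826) was left out.

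HMGN1 (ENSG00000205581, chromosome 21 of GRCh37 from 40714241 to 40721573), a paralog of HMGN2 that also binds nucleosomes, was not called. Its values were 252, 258 and 217 FPKM in control and 240.0, 259 and 255 FPKM in Ras-induced libraries, which overlapped. The log2 fold change was 0.06 (95% interval from -0.16 to 0.27, adjusted p = 0.706 from limma), and it was -0.06 after upper-quartile scaling and -0.02 without control library 3. The balance within the family differed between the groups. The ratio of HMGN1 to HMGN2 was 0.403, 0.418 and 0.422 in control libraries and 0.857, 0.643 and 0.792 in Ras-induced libraries.

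HMGN3 (ENSG00000118418, chromosome 6 of GRCh37 from 79910962 to 79944406), best known in neural and endocrine cells, was listed at 66.1, 64.6 and 46.7 FPKM in control and at 63.4, 59.6 and 55.1 FPKM in Ras-induced libraries. The groups overlapped, and control library 3 was the lowest of the 6. The log2 fold change was 0.02 (95% interval from -0.33 to 0.37, adjusted p = 0.939 from limma), and it turned negative after quantile normalization (-0.07) or upper-quartile scaling (-0.09) and without control library 3 (-0.14) or Ras-induced library 1 (-0.03).

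HMGN5 (ENSG00000198157, chromosome X of GRCh37 from 80369198 to 80457412), the member with a long acidic tail, was by far the lowest, at 4.55, 3.56 and 3.89 FPKM in control and 3.50, 2.67 and 3.06 FPKM in Ras-induced libraries. The highest Ras-induced library lay just under the lowest control. The log2 fold change was -0.30 (95% interval from -0.64 to 0.05) and the adjusted p was 0.2 from limma, which missed the threshold. Because 1 FPKM is added before the logarithm, the log2 scale understates a change at this level. The same holds below for genes with a group mean of few FPKM, such as LEF1, CXCL12, HMGA1P8 and HMGN2P15.

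**Figure D1:**
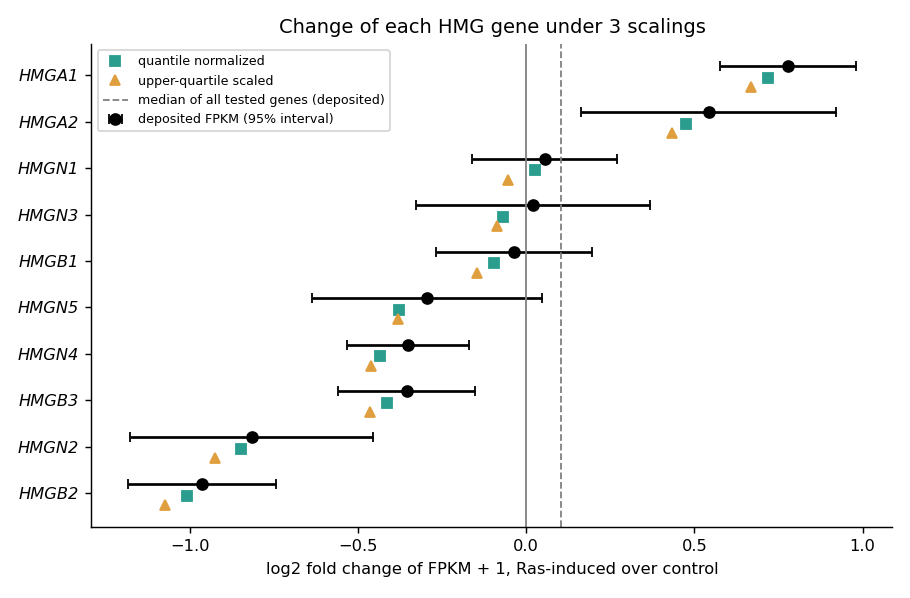
Log2 fold change of FPKM + 1 (horizontal axis), Ras-induced over control, for each HMG gene in the deposited values (black, with the 95% interval) and after quantile normalization (squares) or upper-quartile scaling (triangles). The dashed line is the median of all tested genes, 0.10. HMGA1 and HMGA2 lie above 0 and HMGB2, HMGB3, HMGN2, HMGN4 and HMGN5 lie below 0 under the 3 scalings, while HMGN1 changes sign under upper-quartile scaling and HMGN3 under both.

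Quantile normalization moved the median change over all tested genes (log2) by -0.09 and upper-quartile scaling by -0.10, and after upper-quartile scaling 45.5% of the altered genes were higher, beside 66.1% in the deposited values. The directions of the 7 separated genes did not turn under either scaling, and 1 member was higher and 4 lower in both. Quantile normalization gave HMGA2 a log2 fold change of 0.47 (adjusted p = 0.105 from limma) and upper-quartile scaling 0.43 (adjusted p = 0.107 from limma). HMGN5 had -0.38 after both (adjusted p = 0.109 and 0.127 from limma).

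FPKM is scaled for transcript length, which allows levels to be set side by side, within the limit that reads shared with pseudogenes leave the levels of HMGB1 and HMGN2 uncertain. In control mitotic cells the order by mean level was HMGN2, HMGB1, HMGA1, HMGB2, HMGN1, HMGB3, HMGN4, HMGA2, HMGN3 and HMGN5. The library ranges of HMGN2 and HMGB1, of HMGB1 and HMGA1 and of HMGA2 and HMGN3 overlapped, so these neighbours were not separated. In Ras-induced mitotic cells the order was HMGA1, HMGB1, HMGN2, HMGN1, HMGB2, HMGB3, HMGA2, HMGN4, HMGN3 and HMGN5, and only HMGB3 and HMGA2 and HMGN4 and HMGN3 overlapped. HMGA1 measured 0.992 ± 0.0434 times HMGB1 in control and 1.76 ± 0.299 times HMGB1 in Ras-induced libraries, a ratio that carries the same uncertainty of HMGB1.

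The summed FPKM of the 10 genes stayed within the spread of the libraries, at 2661 ± 141.5 FPKM in control and 2590 ± 107.6 FPKM in Ras-induced cells, while its makeup moved. The HMGA genes gave 22.4, 22.4 and 24.0% of the sum in control libraries and 41.0, 35.8 and 43.0% in Ras-induced libraries. The HMGB share went from 40.6 ± 0.675% to 32.7 ± 2.28% and the HMGN share from 36.5 ± 1.60% to 27.4 ± 1.64%. No library of one group reached the other in any of the 3 shares. These sums were taken over chosen genes and are given without a test.

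**Figure D2:**
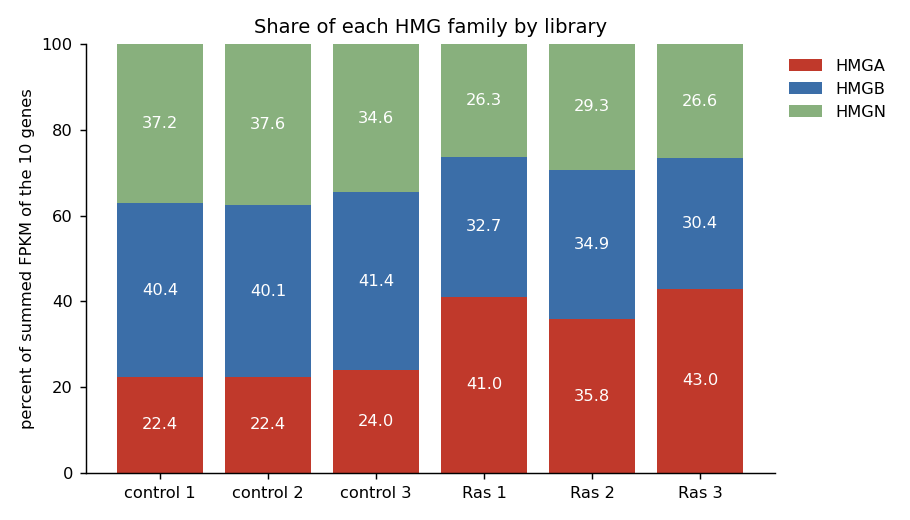
Share of each HMG family in the summed FPKM of the 10 genes (vertical axis, percent), 1 bar per library. The HMGA share is between 22.4 and 24.0% in the 3 control bars and between 35.8 and 43.0% in the 3 Ras-induced bars.

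Among all tested genes most HMG genes stood at the high end of expression. HMGA1, HMGB1, HMGB2, HMGN1 and HMGN2 lay between the 97.4th and 99.4th percentile of level, HMGN5 at the 21.8th. The genes most like each member over the 6 libraries, by Pearson correlation of log2(FPKM + 1), are given as a description, since the difference between the groups enters each r. They were IL13RA2 (r = 0.998), AC006130.1 (0.997) and PROCR (0.997) for HMGA1, of which AC006130.1 was listed at 0 in the controls, and DNMBP-AS1 (0.998), TXNRD1 (0.997) and LCMT2 (0.994) for HMGA2. DNMBP-AS1 is antisense to DNMBP, and without strand its reads cannot be told from those of its partner. For HMGB2 they were ATL3 (0.999), PKN3 (0.998) and GINS3 (0.998), a subunit of the replicative helicase, and for HMGB1 COQ3 (0.995), IMMP1L (0.991) and DCTN3 (0.990). GINS3 was listed at 9.84, 8.87 and 8.75 FPKM in control and at 5.19, 5.52 and 4.72 FPKM in Ras-induced libraries.

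**Figure D3:**
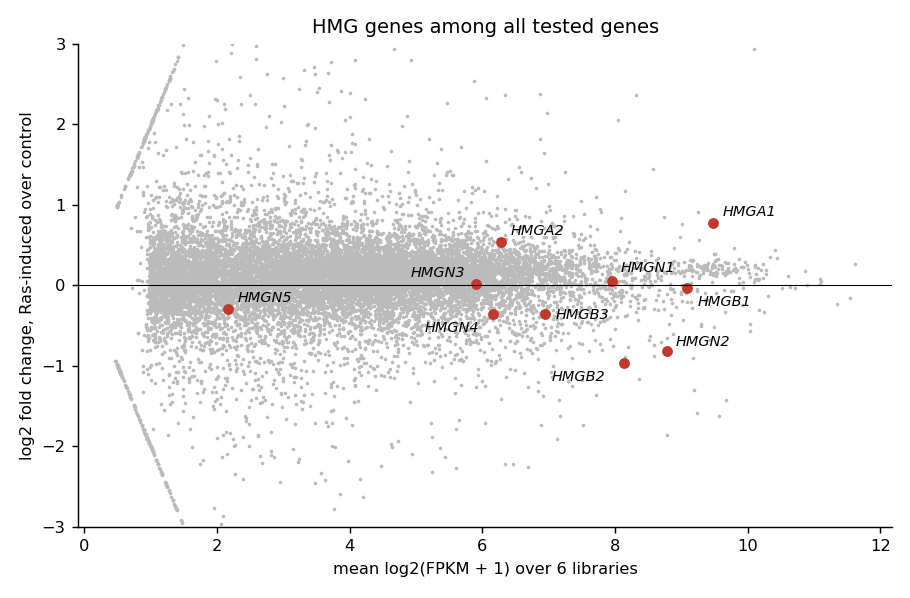
Log2 fold change, Ras-induced over control (vertical axis, cropped at 3 on either side), against mean log2(FPKM + 1) over the 6 libraries (horizontal axis) for all 13993 tested genes (grey) and the 10 HMG genes (red). HMGA1 lies at 0.78, HMGB2 at -0.96 and HMGN2 at -0.82, all at the high end of level.

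Sequence upstream of the start site is shown for HMGA1, HMGB3 and HMGN2, 1 altered gene of each family, as a view of the promoters of genes that moved in opposite directions. The window of HMGN4, also altered, held neither a CCAAT box nor a CHR and is not printed. RefSeq windows of 300 bases, from 250 before to 50 after a start, matched 8 of the 10 genes in 12 windows. Windows of HMGA2 and HMGB2 were not analysed here. The 250 bases before the first listed start are printed on the plus strand of GRCh38.p14, with the motif matches in capitals.

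HMGA1 chr6:34236623-34236872: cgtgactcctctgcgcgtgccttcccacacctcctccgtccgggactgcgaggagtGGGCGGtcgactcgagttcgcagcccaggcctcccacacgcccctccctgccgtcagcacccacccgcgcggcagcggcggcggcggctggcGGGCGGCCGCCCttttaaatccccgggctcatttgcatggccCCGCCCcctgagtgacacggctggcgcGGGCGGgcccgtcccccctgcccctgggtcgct

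HMGB3 chrX:150983085-150983334: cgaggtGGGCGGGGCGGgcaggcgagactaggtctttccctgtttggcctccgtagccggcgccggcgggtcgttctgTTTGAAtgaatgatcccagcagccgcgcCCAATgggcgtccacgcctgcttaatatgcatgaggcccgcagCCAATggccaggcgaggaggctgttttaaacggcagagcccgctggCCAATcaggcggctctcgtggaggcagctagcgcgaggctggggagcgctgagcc

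HMGN2 chr1:26472190-26472439: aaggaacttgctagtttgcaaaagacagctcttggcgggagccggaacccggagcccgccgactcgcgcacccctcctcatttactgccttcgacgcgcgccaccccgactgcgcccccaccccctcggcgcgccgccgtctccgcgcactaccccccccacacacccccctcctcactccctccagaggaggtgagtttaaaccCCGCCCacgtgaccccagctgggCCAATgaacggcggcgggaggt

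The motifs searched on both strands were the CCAAT box (CCAAT), the GC box (GGGCGG), the cell cycle homology region or CHR (TTTGAA), the E2F site (TTTCCCGC, TTTGGCGC, TTTGCCGC or TTTCGCGC) and the AP-1 site (TGAGTCA or TGACTCA). Adjoining GC boxes can overlap each other. The CCAAT box occurred in 8 of the 12 windows and in 34.6% of all 35116 RefSeq windows, and the GC box in 8 of 12 and 45.0%. In the printed HMGB3 stretch, 3 CCAAT boxes lie downstream of a CHR, a motif that occurred in 2 of the 12 windows and in 15.2% of all. The E2F and AP-1 letters occurred in 0 of the 12 windows and in 3.31% and 4.95% of all, which says only that these letters are not in these windows.

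Genes that work with the HMG proteins were read as lists, each beside the 16.7% of all tested genes that were altered. Linker histones compete with HMG proteins for nucleosomes. Of 8 linker histone H1 genes 3 were tested and 1, HIST1H1C, was altered, from 5.50 ± 1.16 to 13.1 ± 1.92 FPKM (log2 fold change 1.13, adjusted p = 0.0094 from limma). H1F0 and H1FX had log2 fold changes of 0.24 and -0.22 and were not called. Without Ras-induced library 1 no linker histone gene was altered. Transcripts of most replication-dependent histones lack a poly(A) tail, and poly(A) RNA was sequenced.

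Other genes with an HMG box were altered about as often as all genes. Of 27 listed 23 were tested and 4 were altered, 2 higher and 2 lower (17.4%, median log2 fold change 0.21), and 2 were altered when control library 1, 2 or 3 or Ras-induced library 1 or 3 was left out. The Wnt effector LEF1 rose from 1.77 ± 0.656 to 4.87 ± 1.08 FPKM (log2 fold change 1.09, adjusted p = 0.022 from limma), and its relative TCF7L1 had a log2 fold change of -0.97. The histone methyltransferase gene WHSC1 fell from 132.8 ± 5.75 to 76.7 ± 5.52 FPKM (log2 fold change -0.79, adjusted p = 0.00328 from limma), and HMGXB3 had 0.42. SSRP1, the HMG-box subunit of the histone chaperone FACT, measured 129.5 ± 0.462 and 136.5 ± 5.59 FPKM and was not called.

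Among 12 genes linked to SAHF, the foci in which HMGA proteins gather, 5 were altered, 1 higher and 4 lower (41.7%, median log2 fold change -0.09). The 12 include LMNB1 and LBR, which are genes of the nuclear envelope and not parts of the foci. ASF1A, a histone chaperone needed for the foci, rose with a log2 fold change of 0.49 (adjusted p = 0.0149 from limma). LMNB1, the lamin lost in senescence, fell from 189 ± 19.3 to 93.7 ± 10.5 FPKM (log2 fold change -1.005, adjusted p = 0.00424 from limma). LBR and RB1 had log2 fold changes of -0.77 and -0.50, and CBX1 had -0.35, all altered. Leaving out 1 library brought the count down to between 1 and 3 for control library 1 (1) or 2 (3) and Ras-induced library 1 (1), 2 (2) or 3 (1).

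Of 10 receptors and extracellular partners of HMGB1 only 2 had a mean of at least 1 FPKM and were tested. AGER, the RAGE receptor, measured 3.93 ± 1.12 and 3.66 ± 0.482 FPKM and was not called, while CXCL12, a chemokine that binds HMGB1, fell from 10.7 ± 1.12 to 0.514 ± 0.276 FPKM (log2 fold change -2.96, adjusted p = 0.000773 from limma). TLR4, CXCR4 and CD24 were listed at 0 in all 6 libraries. In the SET complex, which contains HMGB2, 1 of 5 genes was altered (0 without control library 1 or Ras-induced library 3), NME1, which rose from 103.5 ± 6.61 to 174 ± 28.0 FPKM (log2 fold change 0.74, adjusted p = 0.0125 from limma). SET itself measured 275 ± 18.1 and 285 ± 10.5 FPKM.

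Of 28 G2/M genes 16 were altered, all lower (57.1%, median log2 fold change -0.35), and 12 were not called, with log2 fold changes from -0.59 for NUSAP1 to 0.17 for CKS2, of which only CKS2 and UBE2C, at 0.01, were above 0. The summed level of the 28 went from between 4150 and 4346 FPKM to between 3317 and 3643 FPKM. KIF20A, a cytokinesis kinesin, had the largest fall of the altered genes, from 182 ± 11.6 to 103.6 ± 4.26 FPKM (log2 fold change -0.81, adjusted p = 0.00279 from limma), followed among altered genes by TOP2A, HMMR and CENPE with -0.63, -0.60 and -0.56. Without the mean-variance trend 9 were altered, and with no filter on low values 7. The count was 3 without control library 1 or 2, 4 without Ras-induced library 1 or 3, and 10 without Ras-induced library 2.

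Of 24 S-phase genes 23 were tested and 15 were altered, all lower (65.2%, median log2 fold change -0.71). The thymidylate synthase gene TYMS fell from 88.4 ± 3.73 to 27.6 ± 6.64 FPKM (log2 fold change -1.67, adjusted p = 0.00279 from limma), and the replication licensing genes MCM3, MCM6 and CDT1 had log2 fold changes of -1.30, -1.26 and -1.24. The summed level of the 24 went from between 1039 and 1132 FPKM to between 629 and 793 FPKM. The count was 9 without control library 1, and 7 without control library 2 or Ras-induced library 1 or 3. Beside these medians HMGB2 had a log2 fold change of -0.96 and HMGN2 one of -0.82, and neither difference from a list was tested. The part of cell cycle position in the HMG differences was not tested.

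Pseudogenes of the members add an uncertainty of counting. Of 147 listed 22 were tested and 2 were altered. HMGA1P8 went from 3.43 ± 0.625 to 8.59 ± 1.94 FPKM (log2 fold change 1.10, adjusted p = 0.0134 from limma) and HMGN2P15 from 4.36 ± 1.45 to 1.59 ± 0.369 FPKM (log2 fold change -1.02, adjusted p = 0.0341 from limma), each in the direction of its parent gene. HMGB3 has 29 listed pseudogenes and HMGN1 has 30, none with a mean above 4 FPKM in either group. HMGB2 and HMGN3 each have 1 listed pseudogene, at 0 in every library.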

How the data were processed

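Poly(A) RNA of 3 control and 3 Ras-induced mitotic samples was sequenced by the authors as paired-end reads, aligned to hg19 with TopHat2 and Ensembl splice junctions, and Cufflinks FPKM values per gene and library were deposited by the authors. The submitters' processing notes also name Trim Galore 0.3.0. Scaling between libraries is not given in the sources used here. The deposited cuffdiff table holds the authors' own fold changes and p-values and was not used.

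The table's 18 unnamed columns were not used, 120 rows with more than 6 values were skipped, and 1 repeated header row was dropped. Columns name the group and a number but not the sample. The test was limma 3.58.1 (R 4.3.3; two-sided, eBayes with trend) on log2(FPKM + 1) of the 13993 genes whose mean reached 1 FPKM, with Benjamini-Hochberg adjustment over all of them, and the script was tested on simulated data. Exact tests were not used, since 3 libraries against 3 cannot reach the threshold. Alternatives were pseudocount 0.1, no filter or 5 FPKM, quantile and upper-quartile scaling, no trend, a replicate block and each library left out. A minimum change was added after seeing the data. FPKM carries no absolute depth.

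The 10 members were all named, with HRAS, the 4 largest altered genes of each list and the 3 genes most like 4 members. Other listed genes, pseudogenes and motifs were chosen after values were seen. The members and lists were chosen with earlier results of these data known. Positions are from GENCODE 44 lifted to GRCh37, the build of hg19, and promoters and miRNAs from RefSeq. Python 3.11.15, pandas 2.3.3 and matplotlib 3.10.9 were used.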

Additional observations from a re-analysis of the deposited data

How the results depend on the processing

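HMGA1 and HMGB2 kept direction and call in all 13 alternatives. HMGA2 passed the threshold among genes of at least 5 FPKM and with the replicate block (log2 fold change 0.54 in both, adjusted p = 0.0482 and 0.0226 from limma). With the block HMGB3 (-0.36, adjusted p = 0.0507), HMGN4 (-0.35, 0.0514) and HRAS (0.44, 0.0526) lost their calls, so that 2 members were higher and 2 lower, and 1466 genes were higher and 844 lower. Deviations of same-numbered libraries had correlations of -0.0027, 0.0433 and 0.0481, and those of other pairs ran from -0.0679 to 0.0311. Not every library correlated best with its own number. With 3 libraries per group, values this small cannot tell whether the numbers pair the libraries. Other losses without a left-out library were HMGB3 without a filter or without the trend (-0.36 in both), HMGN2 without a filter (-0.82), and HRAS without a filter or trend (0.44 in both) and after upper-quartile scaling (0.33, adjusted p = 0.0925). Without a filter 2 members were lower and 960 genes higher. Among genes of at least 5 FPKM 2 members were higher. With a log2 change of at least 0.5 required, 2 members were lower and 1009 genes higher. Upper-quartile scaling gave 921 genes higher and 1101 lower (45.5% of altered genes higher, 48.5% after quantile normalization and 66.1% in the deposited values).

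Leaving out 1 library gave between 1 and 4 lower members (4 without control library 3, 2 without Ras-induced library 2, otherwise 1), between 519 and 1162 higher genes and between 335 and 710 lower genes. The fold changes ranged from -0.41 to -0.29 for HMGB3, from -0.96 to -0.70 for HMGN2, from -0.38 to -0.31 for HMGN4 and from 0.32 to 0.50 for HRAS. The signs of HMGB1 (from -0.12 to 0.0088), HMGN1 (from -0.0232 to 0.10) and HMGN3 (from -0.14 to 0.11) turned, and also that of HMGN1 (-0.0551) after upper-quartile scaling and of HMGN3 after quantile (-0.0681) and upper-quartile scaling (-0.0882).

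Altered genes were 2 of the other HMG-box list among genes of at least 5 FPKM, 0 of the let-7 list without a filter and 1 after either scaling, 2 of the SET complex list with the block, and 7 and 9 of the G2/M list without a filter and without the trend. Leaving out 1 library gave between 2 and 4 altered other HMG-box genes, 0 and 1 linker histones, 0 and 4 let-7 list genes, 1 and 5 SAHF list genes, 0 and 1 SET complex genes, 3 and 13 G2/M genes and 7 and 14 S-phase genes. The smaller fits have fewer samples, and otherwise the cause was not tested.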
